A study of Homo sapiens with 9 samples.

Results

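Knockdown of either isozyme of inosine monophosphate dehydrogenase was compared, as 1 pooled effect, with a control hairpin in Huh7 cells, a long-established line from a human hepatocellular carcinoma. All 9 of the 9 libraries of the series were used. The 3 shIMPDH1 and the 3 shIMPDH2 libraries formed the knockdown side, each knockdown with equal weight, and the 3 shControl libraries the control side. A gene was called, and is said to have risen or fallen, at a Benjamini-Hochberg adjusted p under 0.05 in edgeR's quasi-likelihood test of the mean of both knockdowns against shControl. It had no overlap when its 6 knockdown libraries all lay above, or all below, its 3 control libraries. Levels are given as CPM, the counts scaled to library size with TMM factors, and changes are log2 ratios with the standard error (SE) of the model.

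Per the labels, the cells of all 3 groups were grown in the same medium, infected with a pLKO.1 lentivirus that expressed a short hairpin and selected with puromycin. The virus had been packaged in HEK293T, a human embryonic kidney line. The groups therefore share the vector, the infection and the drug, and differ in the hairpin. The labels state neither the hairpin sequences nor their number for each target. The series calls the replicates biological, without saying how separate the cultures were, so the p-values cover the spread between these libraries only. Both knockdowns were set against the same 3 control libraries. A change peculiar to the shControl cells would therefore appear in both knockdowns, and it cannot be told apart from a change that both hairpins brought about.

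IMPDH1 and IMPDH2 catalyse the oxidation of IMP to XMP, the rate-limiting step on the way from the common purine precursor to GTP. Guanine nucleotides are used for RNA and DNA synthesis and are bound by tubulin and by the large families of GTPases, and their supply is linked to ribosome production in the nucleolus. Proliferating cells rely mainly on IMPDH2, and inhibitors of the enzyme are used as immunosuppressive drugs.

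The libraries held 44560837 to 58370328 counts, and 17396 of the 58684 genes in the table passed the filter on low counts. A gene with 3 counts had 0.0519 to 0.0674 CPM. The common biological coefficient of variation was 0.0268. shControl replicate 1 stood apart from the other controls, with a mean chi-square per gene of 5.81 and 7.002 against shControl replicates 2 and 3, which gave 1.94 between themselves. Pairs with replicate 1 gave the higher values in the knockdowns as well. They were 3.84 and 3.94 against 2.10 in shIMPDH2, and 2.26 and 2.42 against 1.80 in shIMPDH1. The 8 hepatocyte markers were present in every library, from 84.3 CPM at the lowest for TTR to 11226 CPM at the highest for ALB, scaled here by library total alone. Of the blood cell markers, CD3E, CD68, HBB, MS4A1 and PTPRC were at 0 to 6 counts, but CD14 was at 3.23 to 5.73 CPM and LYZ, lysozyme, at 866 to 1329 CPM. CLDN5, EMCN, KDR, TEK and VWF of endothelium were at 0 to 3 counts, but CDH5 was at 7 to 24 and PECAM1 at 254 to 767. Of the 8 fibroblast and stellate cell markers 7 passed the filter. Among them COL1A2 was at 69.7 to 85.2 CPM, PDGFRB at 8.15 to 13.7 and PDGFRA at 5.15 to 11.6, while DCN was at 0 to 3 counts and did not pass. Of the markers of the kidney line, CD70, NEFL, NEFM and PAX2 were at 0 to 3 counts, and LHX1 was at 97 to 216 counts, GATA3 at 72 to 168, SIX2 at 18 to 35 and HOXB7 at 2 to 18.

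The targeted genes come first. IMPDH1 (chr7:128392277-128410252, minus strand, GRCh38) was at 62.9, 62.5 and 62.6 CPM in the shControl libraries, at 25.3, 23.5 and 24.7 CPM in shIMPDH1 and at 66.4, 71.5 and 73.1 CPM in shIMPDH2. IMPDH2 (chr3:49024325-49029408, minus strand) was at 226, 227 and 229.6 CPM in shControl, at 271, 274 and 277 CPM in shIMPDH1 and at 109, 109.9 and 109.7 CPM in shIMPDH2. Each target was low under its own hairpin, and the other isozyme lay above all 3 controls, so that neither gene had its 6 knockdown libraries on 1 side. Both fell on average, IMPDH1 by 0.60 (SE 0.0320, adjusted p = 2.49e-14) and IMPDH2 by 0.39 (SE 0.0204, adjusted p = 1.36e-14). Neither average describes a library. With the 6 knockdown libraries fitted as 1 group, neither gene was called (adjusted p = 0.547 for IMPDH1 and 0.690 for IMPDH2).

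The genes around IMPDH changed little in common. Of 15 genes of guanine nucleotide synthesis and salvage, both targets included, 4 rose and 5 fell, against 18.3% of all genes tested that rose and 21.5% that fell, and 2 were called without overlap. Leaving out shControl replicate 2, or replicate 3 in its place, 2 rose and 4 fell, and with the 6 libraries as 1 group 1 rose and 0 fell. GMPR2, a GMP reductase that returns GMP to IMP, rose from 75.1, 78.2 and 74.7 CPM to 82.2 to 88.0 CPM in the 6 knockdown libraries (log2 change 0.16, SE 0.0252, adjusted p = 6.91e-06). PNP, the purine nucleoside phosphorylase of salvage, fell from 112, 118 and 117 CPM to 97.2 to 111 CPM (log2 change -0.15, SE 0.0256, adjusted p = 2.16e-05), and was not called with the 6 libraries as 1 group (adjusted p = 0.0617). Exons on the opposite strand cover 11.9% of the exon bases of PNP, and whether reads were counted by strand is unknown. GMPS, which makes GMP from XMP, was at 82.9 CPM in shControl (SD 2.53, n = 3), 83.8 CPM in shIMPDH1 (SD 1.36) and 83.2 CPM in shIMPDH2 (SD 1.31), and was not called (adjusted p = 0.775). Nor were the guanylate kinase gene GUK1 (adjusted p = 0.727) and the salvage enzyme gene HPRT1 (adjusted p = 0.439). The nucleoside diphosphate kinase genes NME3 and NME4 rose by 0.13 and 0.09 on average, from 0.33 and 0.22 in shIMPDH1 and -0.07 and -0.05 in shIMPDH2. GDA, guanine deaminase, fell by 0.49 on average, with 0.14 in shIMPDH1 and -1.11 in shIMPDH2, and was not called with the 6 libraries as 1 group (adjusted p = 0.515).

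Over all genes, 6917 of 17396 (39.8%) were called, 3180 higher (18.3%) and 3737 lower (21.5%). No overlap was seen for 3938 genes (22.6%), 1805 higher (10.4%) and 2133 lower (12.3%). Both conditions held for 3748 genes (21.5%), 1710 higher (9.83%) and 2038 lower (11.7%). Most of these shared changes were small: the median fold of the 3748 genes was 1.19, and 1953 of them (52.1%) changed by less than 1.2-fold. The larger changes were more often falls. Of the 3748 genes, 717 exceeded 1.5-fold, 219 higher and 498 lower, and 256 exceeded 2-fold, 60 higher and 196 lower. Of those 256 genes, 160 had a mean log2 CPM under 0. With the 6 knockdown libraries as 1 group, where the spread includes the differences between the knockdowns, 2495 genes were called, 1120 higher and 1375 lower, and 2451 of the 3748 genes were among them.

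The same count was made with each other group set against the remaining 6 libraries. shIMPDH1 lay apart from both other groups for 5174 genes (29.7%) and shIMPDH2 for 4242 (24.4%), beside the 3938 of shControl. Over the 11099 genes with a mean log2 CPM of 2 or more, the root mean square log2 change was 0.209 for both knockdowns against shControl, 0.242 for shIMPDH1 against the mean of the other groups and 0.229 for shIMPDH2 against the mean of the other groups. It was 0.282 between the knockdowns, 0.260 for shIMPDH1 against shControl and 0.243 for shIMPDH2 against shControl. On these measures the controls were the group that stood least apart, and the knockdowns differed from each other more than either differed from the controls. These values describe the 9 libraries and were not tested against each other. Without shControl replicate 1 the controls lay apart for 5078 genes, though a smaller group overlaps less easily. The matching count was not made for the other groups. The shares of genes called were 43.4% for shIMPDH1 against shControl, 38.4% for shIMPDH2 against shControl and 44% between the knockdowns.

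**Figure D1:**
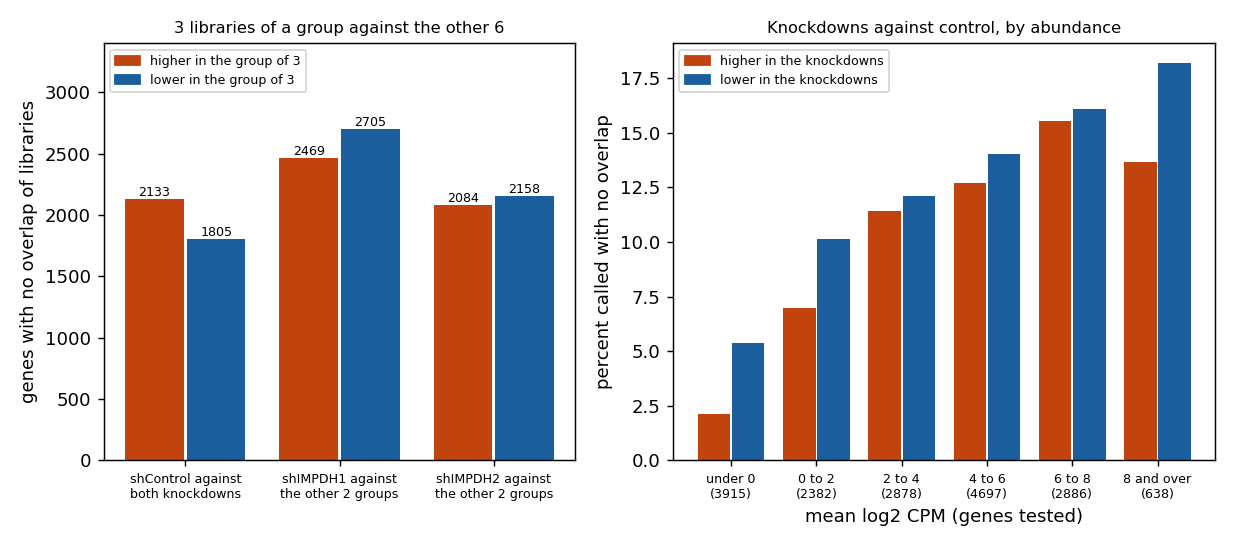
The left panel counts, for each group, the genes for which its 3 libraries and the other 6 do not overlap, by direction; the right panel gives the percent of genes called without overlap in either knockdown against control, by mean log2 CPM. The control arrangement gives 3938 genes, shIMPDH1 5174 and shIMPDH2 4242, and the share on the right goes from 7.51% of the least abundant genes to 31.8% of the most abundant.

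The genes of largest shared change were taken among those called, without overlap and at a mean log2 CPM of 2 or more, so that their separation is a condition of the choice. In these bulk libraries fewer cells of a type and less RNA per cell cannot be told apart. The largest falls were in genes of an oxidase, secreted proteins, receptors and epithelial surface proteins. NOX1, a superoxide-producing NADPH oxidase of epithelium (chrX:100843324-100874345, minus strand), was at 10.4, 10.534 and 11.3 CPM in shControl, at 4.65, 3.98 and 4.06 CPM in shIMPDH1 and at 0.850, 1.12 and 0.759 CPM in shIMPDH2. It was low in both knockdowns and lowest in shIMPDH2 (log2 change -2.46, SE 0.0832, adjusted p = 1.94e-18), with a difference of shIMPDH2 against shIMPDH1 of -2.21 (SE 0.133, adjusted p = 1.66e-13). TIMP2, a tissue inhibitor of metalloproteinases (chr17:78852977-78925387, minus strand), was at 10.8, 10.0 and 10.487 CPM in shControl, at 2.67, 2.77 and 2.79 CPM in shIMPDH1 and at 2.44, 2.59 and 2.34 CPM in shIMPDH2. It was 4.01-fold lower on average (log2 change -2.003, SE 0.0695, adjusted p = 3.06e-18), and the difference between the knockdowns was -0.16 (SE 0.105, adjusted p = 0.228).

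S100A9, a calcium-binding protein of inflammation (chr1:153357854-153361027, plus strand), was at 41.3, 40.8 and 41.2 CPM in shControl, at 7.98, 7.87 and 9.04 CPM in shIMPDH1 and at 15.8, 18.8 and 17.974 CPM in shIMPDH2. It was low in all 6 knockdown libraries and lowest in shIMPDH1 (log2 change -1.77, SE 0.0458, adjusted p = 7.20e-21), with a difference between the knockdowns of 1.07 (SE 0.0650, adjusted p = 2.00e-13).

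The carboxypeptidase-like gene CPXM1 fell by 1.98, the zinc finger gene ZNF114 by 1.87 and PALM3, of the paralemmin family, by 1.76 on the log2 scale. GUCY2C, the guanylate cyclase that serves as the intestinal receptor for guanylin, was at 7.29, 6.45 and 6.83 CPM in shControl, at 4.45, 4.2008 and 4.12 CPM in shIMPDH1 and at 0.739, 0.954 and 0.990 CPM in shIMPDH2. Its average fall of 1.81 came from -0.69 in shIMPDH1 and -2.94 in shIMPDH2, and it was not called with the 6 libraries as 1 group (adjusted p = 0.0945). The epithelial mucin gene MUC13 fell by 1.54, FUT3, a fucosyltransferase of the Lewis antigens, by 1.47, the prostaglandin transporter gene SLCO2A1 by 1.46 and GPX2, a glutathione peroxidase of epithelium, by 1.42. The SE of the 12 falling genes lay between 0.0458 and 0.102, and their control means between 6.86 and 41.1 CPM. The knockdowns differed for 8 of the 12 by the test between them, with the larger fall in shIMPDH2 for 6. For 4 others, TIMP2, ZNF114 and PALM3 among them, that test missed the threshold, which does not show that the knockdowns were alike.

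The largest rises were smaller than the largest falls. FBN2, which encodes the microfibril protein fibrillin 2 (chr5:128257909-128659185, minus strand), was at 5.01, 4.24 and 4.10 CPM in shControl, at 14.7, 13.8 and 13.7 CPM in shIMPDH1 and at 9.11, 9.23 and 10.3 CPM in shIMPDH2. It was highest in shIMPDH1 (log2 change 1.38, SE 0.0704, adjusted p = 8.92e-15). NTS, the gene of the peptide neurotensin (chr12:85874295-85882992, plus strand), was at 4.33, 3.46 and 3.85 CPM in shControl, at 9.53, 9.63 and 9.61 CPM in shIMPDH1 and at 9.59, 10.537 and 10.452 CPM in shIMPDH2. The 6 knockdown libraries lay close together (log2 change 1.35, SE 0.0719, adjusted p = 2.05e-14). The dynein light chain gene DYNLRB1, part of the cytoplasmic motor (chr20:34516409-34540958, plus strand), was at 53.6, 54.7 and 54.9 CPM in shControl, at 131, 138 and 134 CPM in shIMPDH1 and at 139, 144 and 141 CPM in shIMPDH2. It was 2.53-fold higher on average (log2 change 1.34, SE 0.0264, adjusted p = 3.29e-23), and it was the most abundant of the 12 rising genes.

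The other rising genes had low control levels. NGEF, which encodes a guanine nucleotide exchange factor, rose by 1.27, the ephrin receptor gene EPHA5 by 1.23, SPP1, the gene of osteopontin, by 1.12 and EVI5L, a Rab GTPase-activating protein gene, by 1.09. The glycosyltransferase gene B4GALNT3 rose by 0.99, the coagulation factor subunit gene F13B by 0.98, the scaffold gene CNKSR2 by 0.96 and the phosphatase-related gene PLPPR2 by 0.93. The knockdowns differed for 11 of the 12, with the larger rise in shIMPDH2 for 7, and NTS was the exception. BRINP3 was at 2.40, 2.13 and 2.45 CPM in shControl, at 7.80, 8.52 and 8.52 CPM in shIMPDH1 and at 2.75, 2.78 and 2.76 CPM in shIMPDH2. Its libraries did not overlap, but nearly all of the pooled change (log2 change 1.05, SE 0.0902, adjusted p = 3.60e-10) was that of shIMPDH1. The change in shIMPDH2 alone was 0.26 (adjusted p = 0.0681), and the gene was not called with the 6 libraries as 1 group (adjusted p = 0.0966).

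**Figure D2:**
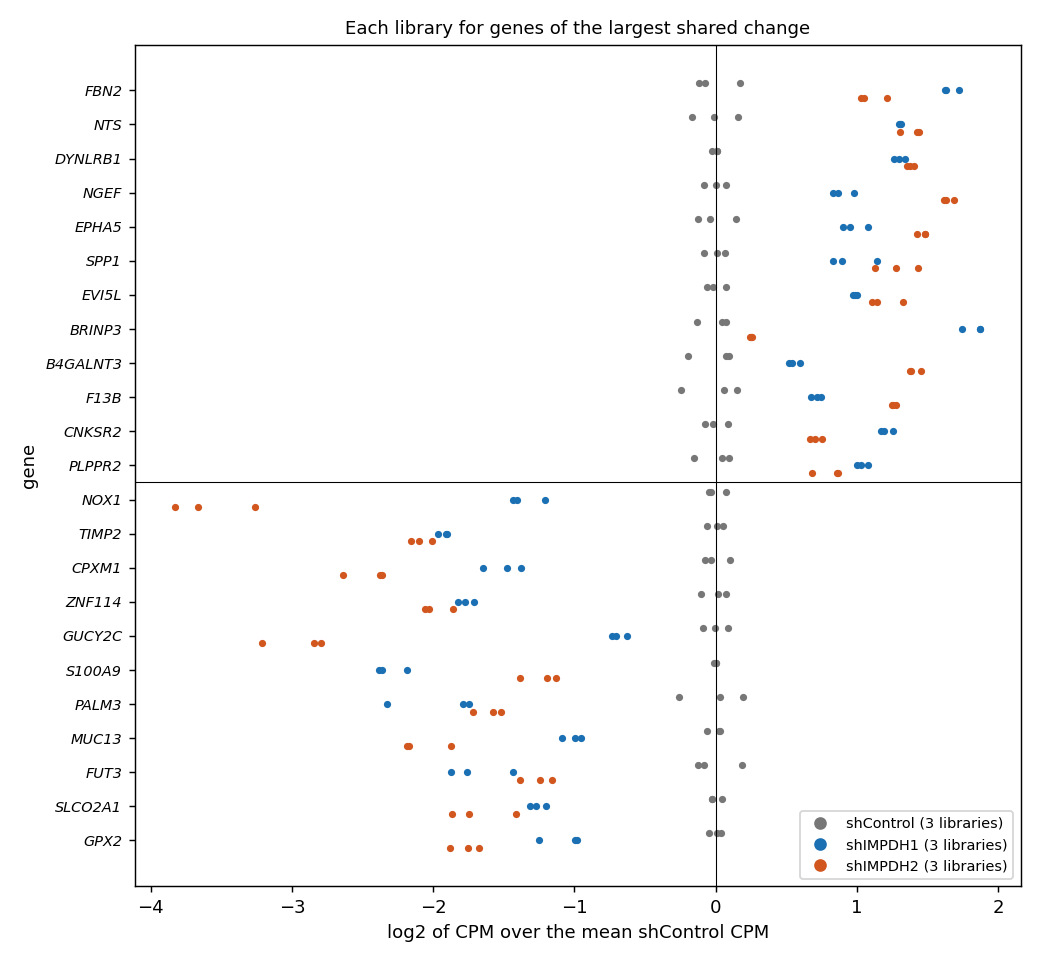
Each point is 1 library, placed by the log2 ratio of its CPM to the mean CPM of shControl, for the 12 rising genes of largest pooled change and 11 of the 12 falling ones. Knockdown points lie on 1 side of the control points for each gene; both knockdowns lie close together for NTS and TIMP2 and far apart for BRINP3, NOX1 and GUCY2C.

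Among genes with a shared change of at least 2-fold at a mean log2 CPM of 2 or more, the 6 with the smallest difference between the knockdowns included AEBP1, DYNLRB1, SPINT1, NTS and KRT19. AEBP1, a carboxypeptidase-like protein of the extracellular matrix (chr7:44104361-44114562, plus strand), was at 22.3, 22.3 and 22.5 CPM in shControl and at 9.81 to 10.9 CPM in the 6 knockdown libraries (log2 change -1.11, SE 0.0434, adjusted p = 3.30e-17). The difference between the knockdowns was -0.07 (SE 0.0576, adjusted p = 0.347). SPINT1, a membrane inhibitor of serine proteases (chr15:40844018-40858207, plus strand), was at 8.57, 9.22 and 8.90 CPM in shControl and at 3.21 to 3.84 CPM in the knockdowns (log2 change -1.35, SE 0.0699, adjusted p = 1.16e-14), with a difference of -0.09 (SE 0.0970, adjusted p = 0.515). KRT19, a keratin of biliary epithelium, was at 26.3, 27.1 and 25.2 CPM in shControl and at 10.7 to 12.2 CPM in the knockdowns (log2 change -1.20, SE 0.0426, adjusted p = 4.85e-18), with a difference of 0.10 (SE 0.0570, adjusted p = 0.159). For DYNLRB1 the difference of 0.08 (SE 0.0273, adjusted p = 0.0254) was small beside the shared change but was called. The 6 genes were picked for evenness, so that these small differences describe the choice.

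The promoters of these evenly changed genes are shown because their transcripts moved together in both knockdowns. Each is the 250 bases before the RefSeq gene start on GRCh38.p14 that lies nearest to the GENCODE start (within 30 bases), 5′ to 3′ on the plus strand: chr20:34516172-34516421 for DYNLRB1, chr15:40843798-40844047 for SPINT1 and chr12:85874045-85874294 for NTS. They were searched on both strands for the TATA box TATAAA, the GC box GGGCGG, the CCAAT box CCAAT, the AP-1 site TGACTCA, the E-box CACGTG and the cAMP response element TGACGTCA, and capitals mark a match; no matches overlap. AEBP1 and KRT19 are named only.
DYNLRB1: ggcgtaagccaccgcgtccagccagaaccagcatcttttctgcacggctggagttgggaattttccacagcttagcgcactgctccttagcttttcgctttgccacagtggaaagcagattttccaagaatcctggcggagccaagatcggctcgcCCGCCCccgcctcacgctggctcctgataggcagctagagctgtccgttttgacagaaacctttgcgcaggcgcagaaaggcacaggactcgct
SPINT1: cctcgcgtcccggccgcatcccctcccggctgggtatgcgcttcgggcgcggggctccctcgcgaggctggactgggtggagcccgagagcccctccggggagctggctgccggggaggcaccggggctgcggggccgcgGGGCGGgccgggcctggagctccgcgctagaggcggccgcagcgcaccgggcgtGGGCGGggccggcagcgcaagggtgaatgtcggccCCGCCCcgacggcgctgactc
NTS: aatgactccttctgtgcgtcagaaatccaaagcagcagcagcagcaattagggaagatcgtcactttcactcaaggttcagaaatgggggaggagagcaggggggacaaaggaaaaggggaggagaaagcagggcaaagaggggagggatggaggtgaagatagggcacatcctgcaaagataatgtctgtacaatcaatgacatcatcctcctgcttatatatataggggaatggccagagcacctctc

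SPINT1 held 3 GC boxes, at 110, 56 and 21 bases before the start, the last of them on the minus strand as CCGCCC, DYNLRB1 held 1, at 94 bases on the minus strand as CCGCCC, and none of the 6 motifs was found in the window of NTS. The GC box stood in 65.5% of the 10892 tested genes with an entry, in 61.8% of the 1242 called higher without overlap and in 69.5% of the 1489 called lower without overlap. The TATA box stood in 5.83%, 6.60% and 6.25% of the same sets. The CCAAT box stood in 35.2%, 33.7% and 36.5% of the same sets. The AP-1 site stood in 2.58%, 2.25% and 3.09% of the same sets. The E-box stood in 8.88%, 9.90% and 7.32% of the same sets. The cAMP response element stood in 2.66%, 3.38% and 1.68% of the same sets. Of the genes called without overlap and changed by over 1.5-fold, 122 higher and 300 lower ones had an entry. Their shares, higher then lower, were 46.7% and 61% for the GC box and 13.1% and 9.67% for the TATA box. They were 36.9% and 30% for the CCAAT box and 4.10% and 6% for the AP-1 site. They were 7.38% and 4.67% for the E-box and 0% and 0.667% for the cAMP response element. Differences between the sets were not tested. Over all 27305 promoters of the table the shares were 42.4% for the GC box, 11.2% for the TATA box, 33.1% for the CCAAT box, 4.12% for the AP-1 site, 6.48% for the E-box and 1.75% for the cAMP response element. A match is a stretch of letters and shows no binding.

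The 6 most abundant genes with a shared change of at least 1.5-fold all fell, and several encode parts of the cytoskeleton or matrix. COL2A1, the chain of type II collagen, was at 1642, 1585 and 1567 CPM in shControl, at 1388, 1372 and 1365 CPM in shIMPDH1 and at 470, 484 and 477 CPM in shIMPDH2. Its pooled change (log2 change -0.98, SE 0.0202, adjusted p = 5.35e-23) was mostly that of shIMPDH2, and it was not called with the 6 libraries as 1 group (adjusted p = 0.216). FLNA, the actin crosslinker filamin A, was at 1407, 1392 and 1373 CPM in shControl, at 722, 737 and 724 CPM in shIMPDH1 and at 1129, 1113 and 1162 CPM in shIMPDH2 (log2 change -0.61, SE 0.0201, adjusted p = 1.03e-18), with the larger fall in shIMPDH1. The kinesin gene KIF1C was at 428 CPM in shControl (SD 5.77, n = 3), 255 CPM in shIMPDH1 (SD 1.92) and 282 CPM in shIMPDH2 (SD 6.15), and fell by 0.67 (adjusted p = 2.39e-19). GSN, the actin-severing protein gelsolin, was at 342 CPM in shControl (SD 3.86, n = 3), 200.97 CPM in shIMPDH1 (SD 2.87) and 219 CPM in shIMPDH2 (SD 10.1), and fell by 0.70 (adjusted p = 1.55e-18). CKB, the brain-type creatine kinase, fell by 0.68 and the annexin gene ANXA4 by 0.59. The knockdowns differed from each other for all 6 by the test between them.

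A shared change and a difference between the knockdowns often stood in the same gene. Of the 3748 genes called without overlap, 1635 (43.6%) also differed between the knockdowns, 917 with the larger change in shIMPDH1 and 718 with the larger change in shIMPDH2. Of the 256 genes over 2-fold, 97 differed. A further 3169 genes were called on average although their libraries overlapped, and for 2454 of them the knockdowns differed. TAGLN, the actin-binding protein transgelin, was at 53.1, 48.9 and 50.9 CPM in shControl, at 12.6, 12.5 and 12.2 CPM in shIMPDH1 and at 106, 104 and 109.8 CPM in shIMPDH2. Its pooled change (log2 change -0.48, SE 0.0330, adjusted p = 3.35e-12) is the mean of -2.03 and 1.07, which point in opposite directions. The natriuretic peptide gene NPPB and the kinase gene ALPK3 were likewise low in shIMPDH1 and high in shIMPDH2, with pooled changes of -0.43 and -0.33. For TAGLN, NPPB and ALPK3 the sign turned with the 6 libraries as 1 group, to 0.23, 0.15 and 0.03, none of them called. SULT1E1, an oestrogen sulfotransferase gene, the stathmin gene STMN3 and the glycosyltransferase gene GALNT7 were high in shIMPDH1 and low in shIMPDH2, with pooled changes of -0.04, 0.32 and -0.15.

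**Figure D3:**
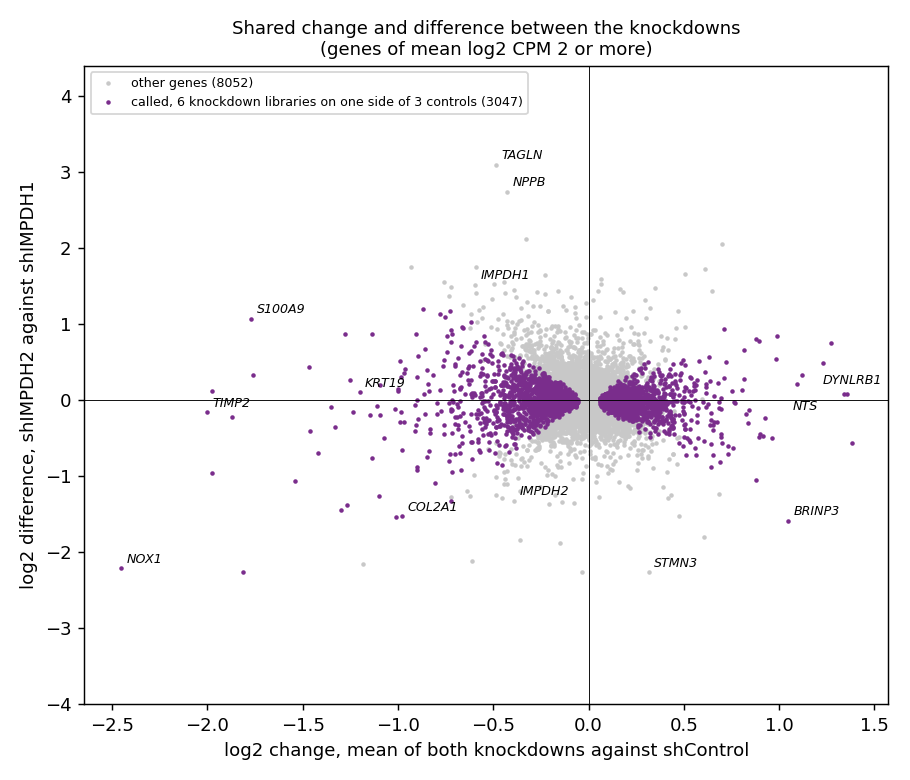
Each point is 1 of 11099 genes with a mean log2 CPM of 2 or more, with the log2 change of both knockdowns against shControl on the x axis and the log2 difference of shIMPDH2 against shIMPDH1 on the y axis; the 3047 genes called without overlap are coloured. TIMP2, NTS and DYNLRB1 lie far out along x and near 0 on y, and TAGLN, at -0.48 on x and 3.10 on y, lies the other way.

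Genes were also grouped into 35 lists of pathways and functions. Over all genes tested, 18.3% rose, 21.5% fell and the median log2 change was -0.00095. A larger share than that of all genes was called in 34 of the 35 lists. The lists and their members were chosen with earlier results of these data known, so these shares may reflect the choice and are no independent support. The share called also went up with abundance, from 12.9% of genes with a mean log2 CPM under 0 to 63.9% of those at 8 or more. The part of the choice and of abundance in the lists' counts was not tested. In 5 lists the members called without overlap were all higher, in another 5 all lower, and no list median exceeded 0.24 in size. Both knockdowns' own medians, given side by side, share the control libraries. The fit of the 6 knockdown libraries as 1 group called fewer members: in the hypoxia list 1 rose and 7 fell, in glycolysis 2 rose and 4 fell, in DNA replication 9 rose and 1 fell, among NRF2 targets 3 rose and 1 fell, among fetal liver markers 1 rose and 6 fell and in the epithelial-mesenchymal list 1 rose and 3 fell. Opposite-strand exons also cover 35.2% of the exon bases of ANKRD37, 21.3% of IFITM3, 20.3% of TUBB6, 20.25% of NOB1 and 16.02% of TUBB. How many of their reads, if any, came from the other strand is unknown.

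**Figure D4:**
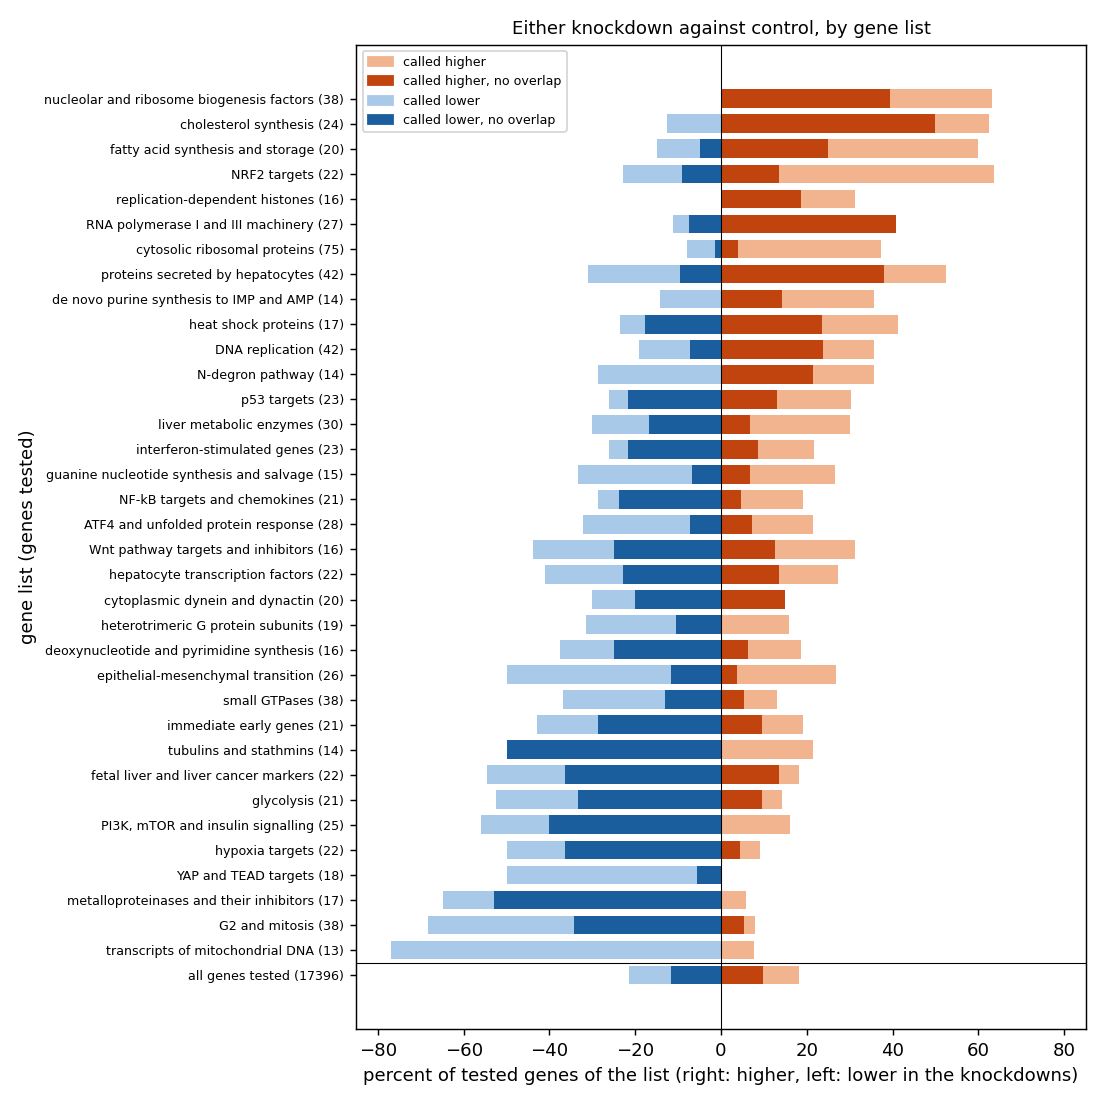
Bars give the percent of tested members of each list called higher or lower in either knockdown against control, with members without overlap in the dark shade and all genes tested for reference. The nucleolar and cholesterol lists have dark bars only on the higher side, and tubulins and stathmins, metalloproteinases and PI3K signalling only on the lower side.

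Genes of ribosome production leaned upward. Of 38 nucleolar and ribosome biogenesis factors, 24 rose and 0 fell, with 15 higher and 0 lower without overlap, and the median was 0.08 (0.11 in shIMPDH1 and 0.06 in shIMPDH2). Their summed level was 6761 to 7171 CPM in shControl, 7611 to 7712 CPM in shIMPDH1 and 7271 to 7414 CPM in shIMPDH2, so that all knockdown libraries lay above the controls. BOP1, which matures the RNA of the large subunit, was at 115, 109.9 and 108 CPM in shControl, at 136, 134 and 133 CPM in shIMPDH1 and at 119.9, 129 and 127 CPM in shIMPDH2 (log2 change 0.22, SE 0.0262, adjusted p = 9.32e-08). NOB1, an endonuclease of small-subunit maturation, rose by 0.23, the nucleolar GTPase gene GNL3L by 0.23 and WDR43, of the small-subunit processome, by 0.18. Without shControl replicate 1, 18 rose and 0 fell, and with the 6 libraries as 1 group 8 rose and 0 fell.

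Of 27 genes of the RNA polymerase I and III machinery, 11 rose and 3 fell, with 11 higher and 2 lower without overlap. POLR3D, a subunit of polymerase III, was at 29.9, 29.1 and 31.7 CPM in shControl, at 38.8, 39.7 and 39.5 CPM in shIMPDH1 and at 43.7, 43.2 and 44.9 CPM in shIMPDH2 (log2 change 0.46, SE 0.0337, adjusted p = 1.37e-11). The initiation factor gene TAF1C rose by 0.36 and the polymerase I subunit gene CD3EAP by 0.25, whereas BRF2, a polymerase III initiation factor gene, fell by 0.35. Opposite-strand exons cover 45.1% of the exon bases of CD3EAP and 59.0% of those of BRF2. Of 75 cytosolic ribosomal protein genes, which have many near-identical pseudogene copies that can take their reads, 28 rose and 6 fell, with 3 higher and 1 lower without overlap. Their median was 0.04, from 0.14 in shIMPDH1 and -0.07 in shIMPDH2, and by the test between the knockdowns 69 of them were lower in shIMPDH2 and 0 higher. RPL15 rose by 0.30, RPL14 by 0.14 and RPL4 by 0.12, and RPS20 fell by 0.09. With the 6 libraries as 1 group, 1 rose and 0 fell of the ribosomal protein genes. Without shControl replicate 2, 3 of them fell and 7 were higher without overlap, and without shIMPDH2 replicate 1 6 were. Of the polymerase genes 5 fell without shControl replicate 1, 4 of them without overlap.

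Lipid synthesis genes leaned upward as well. Of 24 genes of cholesterol synthesis, 15 rose and 3 fell, with 12 higher and 0 lower without overlap, and the median was 0.08 (0.13 in shIMPDH1 and 0.08 in shIMPDH2). Their summed level was 6137 to 6249.9 CPM in shControl, 6921 to 7058 CPM in shIMPDH1 and 6618 to 6729 CPM in shIMPDH2. MVD, which makes isopentenyl diphosphate, was at 177, 168 and 167 CPM in shControl, at 247, 246 and 251 CPM in shIMPDH1 and at 188, 194 and 194 CPM in shIMPDH2 (log2 change 0.36, SE 0.0233, adjusted p = 1.52e-12). DHCR7, a reductase of late cholesterol synthesis, rose by 0.23 and INSIG1, which restrains the sterol sensor, by 0.19. In the fatty acid list, which covers synthesis and storage, 12 rose and 3 fell of 20, with 5 higher and 1 lower without overlap, among them the acetyl-CoA carboxylase genes ACACA (0.21) and ACACB (0.23), the elongase gene ELOVL5 (0.27) and the lipid droplet gene PLIN2 (0.23). The median of the fatty acid list was 0.10, from 0.16 in shIMPDH1 and 0.01 in shIMPDH2. By the test between the knockdowns 11 of its members were lower in shIMPDH2 and 5 higher. With the 6 libraries as 1 group, 7 rose and 0 fell of the cholesterol list and 6 rose and 1 fell of the fatty acid list. Without shControl replicate 1, 8 of the fatty acid list were higher and 2 lower without overlap.

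Secreted products of hepatocytes rose more often than they fell. Of 42 genes, 22 rose and 13 fell, with 16 higher and 4 lower without overlap, and the median was 0.11 (0.03 in shIMPDH1 and 0.16 in shIMPDH2). Their summed level was 48441 to 50796 CPM in shControl, 54285 to 55989.8 CPM in shIMPDH1 and 57259 to 58918 CPM in shIMPDH2. AHSG, the plasma glycoprotein fetuin A, was at 1318, 1355 and 1359 CPM in shControl, at 1875, 1918 and 1929 CPM in shIMPDH1 and at 1807, 1909 and 1896 CPM in shIMPDH2 (log2 change 0.49, SE 0.0223, adjusted p = 7.79e-16). PLG, plasminogen, rose by 0.61 and SERPIND1, the thrombin inhibitor heparin cofactor II, by 0.54. With the 6 libraries as 1 group, 12 rose and 3 fell. Of 30 liver metabolic enzymes, 9 rose and 9 fell, with 2 higher and 5 lower without overlap, and with the 6 libraries as 1 group 1 rose and 5 fell: HPD of tyrosine breakdown fell by 0.86, the drug-metabolising gene CYP3A5 by 0.76 and OTC of the urea cycle by 0.74, and the glucuronosyltransferase gene UGT2B7, a member of a family of close paralogs, rose by 0.71. Of 22 hepatocyte transcription factors, 6 rose and 9 fell; NR1I2, the xenobiotic receptor gene, fell by 0.56 and FOXA1 by 0.28.

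Genes of G2 and mitosis leaned downward. Of 38 genes, 3 rose and 26 fell, with 2 higher and 13 lower without overlap, and the median was -0.10 (-0.08 in shIMPDH1 and -0.08 in shIMPDH2). Their summed level was 6798 to 7081 CPM in shControl, 6283 to 6484 CPM in shIMPDH1 and 6505 to 6559 CPM in shIMPDH2. KIF23, a kinesin of the cytokinetic midzone, was at 148, 156 and 155 CPM in shControl, at 132, 139 and 135 CPM in shIMPDH1 and at 109, 109 and 108 CPM in shIMPDH2 (log2 change -0.33, SE 0.0237, adjusted p = 8.29e-12). TOP2A, the topoisomerase of dividing cells, was at 942 to 1015 CPM in shControl and at 799 to 842 CPM in the knockdowns (log2 change -0.27, SE 0.0234, adjusted p = 3.86e-10). The cytokinesis gene ANLN fell by 0.22 and the spindle gene NUSAP1 by 0.21. Without shControl replicate 1, 2 rose and 28 fell, and with the 6 libraries as 1 group 1 rose and 8 fell. Of 42 DNA replication genes, 15 rose and 8 fell, with 10 higher and 3 lower without overlap: GINS3 of the replicative helicase rose by 0.39, the primase gene PRIM1 by 0.29 and the clamp loader gene RFC4 by 0.20, whereas RFC5, another clamp loader subunit, fell by 0.24. Without shControl replicate 2, 14 rose and 4 fell of the replication genes.

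Of 16 genes of deoxynucleotide and pyrimidine synthesis, 3 rose and 6 fell, with 1 higher and 4 lower without overlap. CTPS1, which makes CTP and is itself stimulated by GTP, was at 182, 183 and 179.8 CPM in shControl, at 169, 165 and 163 CPM in shIMPDH1 and at 122, 124 and 117 CPM in shIMPDH2 (log2 change -0.36, SE 0.0227, adjusted p = 8.59e-13). TYMS, thymidylate synthase, fell by 0.16, with opposite-strand exons over 46.6% of its exon bases, and the ribonucleotide reductase genes RRM2 and RRM1 fell by 0.12 and 0.08. Of 14 genes of purine synthesis to IMP and AMP, 5 rose and 2 fell, with 2 higher and 0 lower without overlap: PPAT, the first committed enzyme, rose by 0.14 and AMPD2, an AMP deaminase, by 0.16. Of that list 1 fell without shControl replicate 2. The replication-dependent histone genes, read here from libraries enriched for polyadenylated RNA, gave 5 rose and 0 fell of 16, with rises of 0.45 for HIST1H2BK, 0.45 for HIST1H1C and 0.38 for HIST1H2BD.

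Tubulins, which bind GTP, leaned downward. Of 14 genes of tubulins and stathmins, 3 rose and 7 fell, with 0 higher and 7 lower without overlap, and the median was -0.20 (-0.22 in shIMPDH1 and -0.16 in shIMPDH2). Their summed level was 6161 to 6458 CPM in shControl, 5422 to 5571 CPM in shIMPDH1 and 5714 to 5912 CPM in shIMPDH2. TUBB was at 2099.8, 2229 and 2212 CPM in shControl, at 1685, 1744 and 1734 CPM in shIMPDH1 and at 1956, 2023 and 2043 CPM in shIMPDH2 (log2 change -0.23, SE 0.0226, adjusted p = 4.02e-09), TUBB2B fell by 0.56, TUBA1A by 0.46 and TUBB6 by 0.38. Tubulin genes are near-identical in coding sequence, so that the split of reads among them is uncertain. The fit of the 6 libraries as 1 group gave 0 rose and 6 fell. Beside DYNLRB1, the dynein and dynactin list of 20 genes gave 3 rose and 6 fell: the light chain gene DYNLL2 rose by 0.32, and the dynactin gene DCTN3 and the intermediate chain gene DYNC1I1 fell by 0.23 and 0.35.

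Other GTP-binding proteins had no single direction. Of 38 small GTPase genes, 5 rose and 14 fell, with 2 higher and 5 lower without overlap, and the median of -0.05 came from -0.11 in shIMPDH1 and 0.09 in shIMPDH2. RALB fell by 0.27 and RHEB, the activator of mTORC1, by 0.20, and RHOB rose by 0.36. Of 19 heterotrimeric G protein subunit genes, 3 rose and 6 fell; GNAZ fell by 0.72 and GNB1 by 0.10. Only 1 G protein gene rose without shControl replicate 1, shControl replicate 3 or shIMPDH2 replicate 3. Among the small GTPases 10 were lower without overlap once shControl replicate 1 was left out. In the N-degron pathway, which marks proteins for breakdown by their first residue, 5 rose and 4 fell of 14: the amidase gene WDYHV1 rose by 0.32 and the ubiquitin ligase gene UBR4 by 0.18.

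Metalloproteinases and their inhibitors leaned downward. Of 17 genes, 1 rose and 11 fell, with 0 higher and 9 lower without overlap, and the median was -0.24 (-0.31 in shIMPDH1 and -0.17 in shIMPDH2). Their summed level was 1579 to 1604 CPM in shControl, 1363 to 1382 CPM in shIMPDH1 and 1461 to 1484 CPM in shIMPDH2. Besides TIMP2, MMP15, a membrane-type matrix metalloproteinase, was at 95.8, 94.1 and 92.3 CPM in shControl, at 62.7, 65.4 and 63.4 CPM in shIMPDH1 and at 68.8, 75.9 and 76.4 CPM in shIMPDH2 (log2 change -0.46, SE 0.0298, adjusted p = 1.37e-12). RECK, a membrane-anchored inhibitor of these enzymes, was at 18.9, 19.1 and 19.019 CPM in shControl, at 14.002, 14.4 and 14.2 CPM in shIMPDH1 and at 10.7, 10.8 and 10.7 CPM in shIMPDH2 (log2 change -0.62, SE 0.0424, adjusted p = 3.36e-12), and ADAM19 fell by 0.90. Proteases and inhibitors thus fell in the same list. Fitted as 1 group, the 6 libraries gave 0 rose and 8 fell.

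The 26 tested genes of the epithelial-mesenchymal transition gave a mixed picture: 7 rose and 13 fell, but only 1 higher and 3 lower without overlap (5 lower without shIMPDH2 replicate 1), and the pooled median of -0.09 came from -0.24 in shIMPDH1 and 0.20 in shIMPDH2. LOXL2, a lysyl oxidase of the matrix, fell by 1.14, TGFB1 by 0.49 and CDH2, N-cadherin, by 0.20, and FN1, fibronectin, rose by 0.16. Of 18 targets of YAP and TEAD, 0 rose and 9 fell, with 0 higher and 1 lower without overlap, which was DLC1, a GTPase-activating protein gene, at -0.10. The list medians were -0.28 in shIMPDH1 and 0.04 in shIMPDH2, so that the average describes neither knockdown well, and with the 6 libraries as 1 group 0 rose and 0 fell.

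Signalling genes of growth and metabolism fell more often than they rose. Of 25 genes of PI3K, mTOR and insulin signalling, 4 rose and 14 fell, with 0 higher and 10 lower without overlap, and the median was -0.14 (-0.15 in shIMPDH1 and -0.06 in shIMPDH2). The adaptor gene IRS2 fell by 0.45, the regulatory subunit gene PIK3R3 by 0.30, and the receptor genes IGF1R and INSR by 0.28 and 0.26. Fitted as 1 group, the 6 libraries gave 1 rose and 8 fell. Leaving out shControl replicate 2 or 3, shIMPDH1 replicate 3 or shIMPDH2 replicate 3 left 2 that rose. Of 22 hypoxia targets, 2 rose and 11 fell, with 1 higher and 8 lower without overlap and a median of -0.17 (-0.18 in shIMPDH1 and -0.14 in shIMPDH2). NDRG1, a stress-induced gene, was at 130.2, 124 and 128 CPM in shControl, at 78.0, 77.8 and 77.8 CPM in shIMPDH1 and at 68.0, 71.5 and 72.8 CPM in shIMPDH2 (log2 change -0.78, SE 0.0256, adjusted p = 1.16e-18). The mitophagy receptor gene BNIP3L fell by 0.67 and ANKRD37 by 0.93, whereas ADM, adrenomedullin, rose by 0.50. Of 21 glycolysis genes, 3 rose and 11 fell: PFKFB3 and PFKFB4, which make the activator of phosphofructokinase, fell by 0.48 and 0.36, the hexokinase gene HK1 by 0.49, and the hepatocyte glucose transporter gene SLC2A2 rose by 0.70.

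The p53 targets moved in both directions, as 7 rose and 6 fell of 23. CDKN1A, the cell cycle inhibitor p21, was at 16.9, 17.6 and 16.01 CPM in shControl, at 10.0, 9.99 and 10.2 CPM in shIMPDH1 and at 7.50, 8.13 and 8.45 CPM in shIMPDH2 (log2 change -0.91, SE 0.0504, adjusted p = 4.90e-14). MDM2, the ubiquitin ligase that acts on p53, was at 53.037, 51.1 and 53.016 CPM in shControl, at 73.5, 72.1 and 70.4 CPM in shIMPDH1 and at 86.2, 79.3 and 79.6 CPM in shIMPDH2 (log2 change 0.55, SE 0.0308, adjusted p = 5.48e-14). These genes lay on opposite sides of the controls in all 6 knockdown libraries, and FDXR and SESN1 fell by 0.43 and 0.26. Of 16 Wnt targets and inhibitors, 5 rose and 7 fell, with 2 higher and 4 lower without overlap. The pooled median of -0.10 came from 0.11 in shIMPDH1 and -0.29 in shIMPDH2. In shIMPDH1 alone 9 of them rose and 4 fell, and in shIMPDH2 2 rose and 10 fell. CCND1, cyclin D1, fell from 232, 232 and 236 CPM to 147, 149.9 and 143 CPM in shIMPDH1 and 187, 184 and 186 CPM in shIMPDH2 (log2 change -0.50, SE 0.0211, adjusted p = 1.92e-16). MYC rose from 72.0, 68.6 and 71.8 CPM to 124, 124 and 124 CPM in shIMPDH1 and 80.5, 83.1 and 89.7 CPM in shIMPDH2 (log2 change 0.53, SE 0.0300, adjusted p = 7.28e-14), the Wnt deacylase gene NOTUM fell by 0.80 and SP5 rose by 0.46. Of 21 immediate early genes, 4 rose and 9 fell, with falls of 0.57 for FOSL2, 0.52 for the ERK phosphatase gene DUSP5 and 0.28 for IER5.

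Stress and immune lists were mixed. Of 22 NRF2 targets, 14 rose and 5 fell, with 3 higher and 2 lower without overlap, and the median of 0.12 came from 0.15 in shIMPDH1 and -0.04 in shIMPDH2; heme oxygenase, HMOX1, rose by 0.24, ME1 by 0.23 and TXNRD1 by 0.15, against the fall of GPX2. Without shControl replicate 2, 14 rose and 3 fell of the NRF2 targets, and the members higher without overlap went from 3 to 5 without shControl replicate 1 or 3 and to 6 without shIMPDH2 replicate 1. Of 28 genes of ATF4 and the unfolded protein response, 6 rose and 9 fell: ALDH1L2, of mitochondrial folate metabolism, rose by 0.88 (1.40 in shIMPDH1 and 0.35 in shIMPDH2) and CHAC1 by 0.44, and the chaperone genes CALR and PDIA4 fell by 0.21 and 0.18. Of 17 heat shock genes, 7 rose and 4 fell; HSF1 rose by 0.35, and HSPB1 fell by 0.19, HSPA1A by 0.13 and HSPA1B by 0.15, the last 2 being near-identical copies. Without shControl replicate 1 the heat shock counts turned, as 4 rose and 7 fell. Of 23 interferon-stimulated genes, 5 rose and 6 fell, with falls of 0.44 for OAS1, 0.40 for IFITM3 and 0.30 for IFI6 and a rise of 0.17 for PARP9. The rises were 2 without shControl replicate 3, 2 by DESeq2 and 3 without shControl replicate 1, shControl replicate 2, shIMPDH1 replicate 2 or shIMPDH1 replicate 3. Of 21 NF-kB targets and chemokine genes, 4 rose and 6 fell; LTB fell by 1.29, CD83 by 0.46 and TRAF1 by 0.33, and CXCL10 rose by 0.24.

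Markers of fetal liver and of bile duct moved in both directions, and several epithelial ones fell beside MUC13. Of 22 markers of fetal liver and liver cancer, 4 rose and 12 fell, with 3 higher and 8 lower without overlap, and the median of -0.07 came from -0.0016 in shIMPDH1 and -0.16 in shIMPDH2. In shIMPDH1 alone 9 rose and 7 fell, and in shIMPDH2 2 rose and 17 fell. The summed level of the list was higher in all 6 knockdown libraries, at 15622 to 16658 CPM in shControl, 19433 to 19835 CPM in shIMPDH1 and 17632 to 18019 CPM in shIMPDH2. AFP, alpha-fetoprotein, which makes up most of that sum, had a mean of 9418 CPM in shControl, 12653 CPM in shIMPDH1 and 11836 CPM in shIMPDH2, and rose by 0.38. DLK1, a Notch-like membrane protein, rose by 0.69 and PEG10 by 0.10, and these 3 were the members higher without overlap, named after their values were seen. CDH17, an intestinal cadherin, was at 80.8, 80.8 and 82.4 CPM in shControl, at 55.4, 54.5 and 53.6 CPM in shIMPDH1 and at 20.2, 20.3 and 19.4 CPM in shIMPDH2 (log2 change -1.30, SE 0.0277, adjusted p = 8.11e-23). EPCAM, an epithelial adhesion protein, was at 29.2, 30.3 and 30.8 CPM in shControl, at 21.8, 21.7 and 21.6 CPM in shIMPDH1 and at 13.0, 13.5 and 12.2 CPM in shIMPDH2 (log2 change -0.85, SE 0.0390, adjusted p = 1.03e-15). Both were lowest in shIMPDH2, and with the 6 libraries as 1 group CDH17 was not called (adjusted p = 0.0639). Of the 6 cholangiocyte markers 5 were tested, of which 1 rose (SPP1) and 4 fell, their summed level was 202 to 204 CPM in shControl, 175 to 182 CPM in shIMPDH1 and 162 to 169.7 CPM in shIMPDH2, and KRT7 was at 0 to 1 counts. Without shControl replicate 1, or replicate 3 in its place, 2 of them fell. Of the 7 endothelial markers 2 were tested and PECAM1 fell by 0.98, with a summed level of 12.3 to 13.5 CPM in shControl, 5.27 to 6.69 CPM in shIMPDH1 and 6.80 to 8.01 CPM in shIMPDH2. Of the 8 fibroblast and stellate cell markers 7 were tested, of which 1 rose and 3 fell. Of the kidney line's 8 markers 4 were tested, of which GATA3 rose by 0.68 and LHX1 fell by 0.76. Of the 8 blood markers 2 were tested, and LYZ, named after its values were seen, rose by 0.24 with libraries that overlapped. Their summed level was 890 to 938 CPM in shControl, 1312 to 1349 CPM in shIMPDH1 and 865 to 903 CPM in shIMPDH2. In shIMPDH2 alone 0 of the blood markers rose and 0 fell. Of the hepatocyte markers 5 of 8 rose and 0 fell. What part other cells had in these values was not tested.

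The transcripts of mitochondrial DNA fell on average, by counts that changed with the control library left out. Of 13 genes, 1 rose and 10 fell, 0 of them without overlap, and the median of -0.16 came from 0.0048 in shIMPDH1 and -0.26 in shIMPDH2. All counts of mitochondrial DNA, ribosomal RNA included, made up 4.55% to 5.54% of a library in shControl, 5.09% to 5.25% in shIMPDH1 and 4.396% to 4.51% in shIMPDH2, and the lowest control was shControl replicate 1. Without that library 1 rose and 11 fell, 8 of them lower without overlap, and the median was -0.24. Without shControl replicate 2, 0 rose and 5 fell (median -0.11), and with shControl replicate 3 left out 2 rose and 5 fell (median -0.07). DESeq2 gave 0 rose and 4 fell, and the fit with the 6 libraries as 1 group 0 rose and 0 fell.

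Genes of the shared change were not spread evenly over the chromosomes. Of 10886 genes with a mean log2 CPM of 2 or more and a position, 13.3% were called higher and 14.4% lower without overlap. On chromosome 6, 30 of 561 genes (5.35%) were higher and 146 (26.0%) lower, and on chromosome 8, 82 of 378 (21.7%) were higher and 38 (10.1%) lower. The median log2 change was -0.05 on chromosome 6 and 0.06 on chromosome 8. In each library, the median deviation of chromosome 6 from the mean of all libraries was 0.030, 0.040 and 0.048 in shControl, -0.034, -0.021 and -0.026 in shIMPDH1 and -0.0099, -0.012 and -0.0095 in shIMPDH2. That of chromosome 8 was -0.043, -0.037 and -0.037 in shControl, 0.0089, 0.025 and 0.019 in shIMPDH1 and 0.023, 0.022 and 0.035 in shIMPDH2. The controls thus lay on 1 side of all 6 knockdown libraries on both chromosomes. These chromosomes had the largest shares of genes lower and higher without overlap, so that this separation partly describes the choice. Without shControl replicate 1 the shares were 6.60% higher and 29.4% lower on chromosome 6 and 24.6% higher and 10.6% lower on chromosome 8. Over all these genes the shares also went up, to 15.1% higher and 16.8% lower.

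In windows of 50 neighbouring genes the lowest median was -0.12, at chr17:4733526-7514616, with -0.16 in shIMPDH1 and -0.11 in shIMPDH2. The highest was 0.14, at chr16:84053761-89972832, with 0.24 in shIMPDH1 and 0.04 in shIMPDH2. A window at the end of chromosome 8 (chr8:143267433-144902168) had a median of 0.13, with 0.17 and 0.08. The cause of these regional shifts was not tested.

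**Figure D5:**
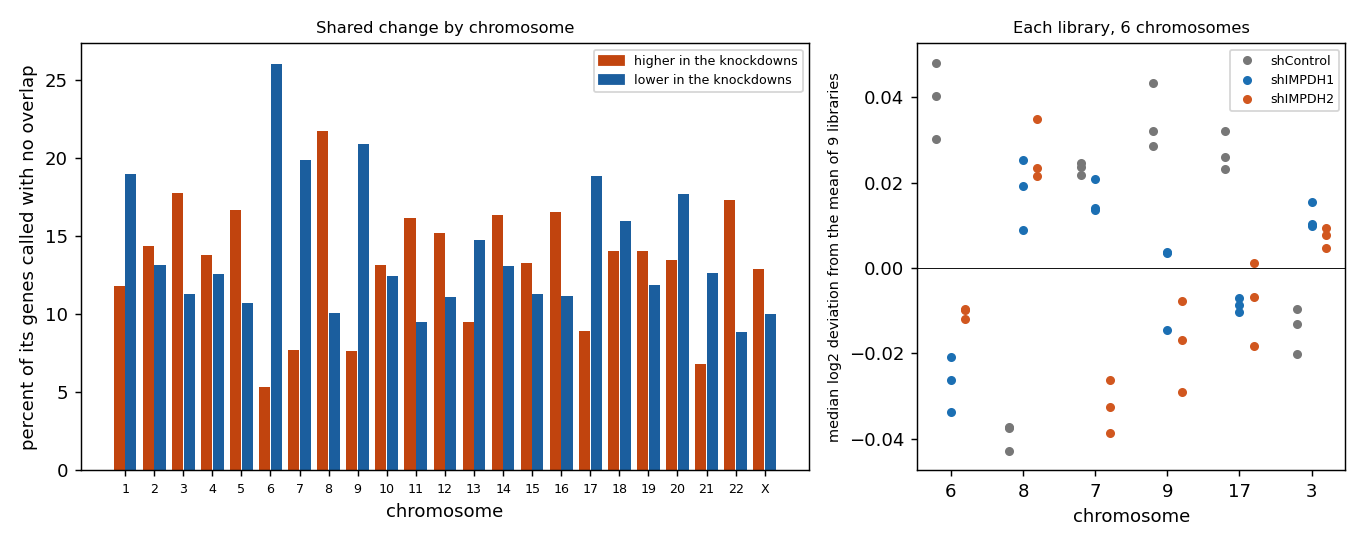
The left panel gives, per chromosome, the percent of genes with a mean log2 CPM of 2 or more called higher or lower without overlap; the right panel gives each library's median log2 deviation from the mean of all libraries for 6 chromosomes. Chromosome 6 has 26.0% of its genes lower and chromosome 8 21.7% higher, the largest shares. On both the 3 control points lie apart from the 6 knockdown points, which partly describes that choice.

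By gene type, 47.2% of 13461 protein-coding genes were called and 25.7% were called without overlap. For 671 long non-coding genes these shares were 20.3% and 10.9%, for 690 pseudogenes 15.9% and 6.96%, and for 266 genes of other types 20.3% and 11.3%. Over all genes tested they were 39.8% and 21.5%, and 2308 symbols had no matched type. The types were not matched for abundance, with which the share called went up, so a part of gene type itself was not tested. The shared change over 2-fold held 39 protein-coding genes that were higher and 174 that were lower.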

How the data were processed

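Messenger RNA of 9 Huh7 libraries, 3 per group, was sequenced with a strand-specific kit, per the labels. The submitters' processing notes list STAR, featureCounts, Trim Galore and cutadapt, with hg38 as the build and no versions. Neither the annotation release nor the strand setting is stated there. The deposited counts are whole numbers per gene, not normalised by the authors.

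From these counts, edgeR 4.0.16 in R 4.3.3 (with limma 3.58.1) was run with its default filter, which kept 17396 genes and 99.9% or more of each library, TMM factors and a quasi-likelihood fit of 3 groups on all 9 libraries. The pooled contrast gave each knockdown a weight of 0.5, p-values were adjusted by Benjamini-Hochberg over all genes tested, and SE is the log2 change divided by the root of F. The procedure was tested on simulated data. Totals ran from 44560837 to 58370328 counts. Positions are from the GENCODE annotation of GRCh38 and promoters from RefSeq (of several entries per gene, the nearest to the GENCODE start), and 15088 tested symbols matched 1 position.

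Named genes are the targets, the guanine nucleotide list, the 12 highest and 12 lowest genes called without overlap at a mean log2 CPM of 2 or more, the 6 most even, the 3 of largest opposite change each way, the 6 most abundant of at least 1.5-fold, and up to 4 members per list. Members and lists were chosen with earlier results of these data known. Alternatives were other scaling, no filter, DESeq2 1.42.0, the 6 knockdown libraries as 1 group, a replicate block, a fold limit, a gap between groups and leaving out each library; the count of genes called without overlap without shControl replicate 1, the list counts under the alternatives, and the chromosome shares under other scaling or without that library were added after seeing the data. Every per-library column was mapped to a sample. Some genes that the rule selects are not reported here.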

Additional observations from a re-analysis of the deposited data

Results flagged for a closer look

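Of 54 named genes examined, 9 were called in opposite directions by the knockdowns against the shared controls and differed by the test between them. Over all genes tested, 983 (5.65%) were called in opposite directions by the knockdowns, and 249 of these were called in the pooled contrast. As log2 differences of shIMPDH2 against shIMPDH1, IMPDH1 had 1.52 and IMPDH2 -1.32, each being low under its own hairpin. GDA, the guanine deaminase gene, had -1.25. SULT1E1 had -2.26, STMN3 -2.26 and GALNT7 -1.88, all high in shIMPDH1 and low in shIMPDH2. TAGLN had 3.10, NPPB 2.74 and ALPK3 2.12, all low in shIMPDH1 and high in shIMPDH2. The last 6 were picked for their opposite changes, so that their differences describe the choice.

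PALM3 had 1 knockdown library apart from the other 5. Its gap to the nearest library was 0.669 of the range of all 6, above Dixon's critical value for groups of 6. This was 1 of 54 named genes examined in this way, and chance alone marks about 1 in 20 groups drawn from 1 population. The 6 libraries came from both knockdowns, so that this rate need not hold here.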

How the results depend on the processing

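With the 6 knockdown libraries as 1 group, 2495 genes were called, 1120 higher and 1375 lower, and a test against a fold of 1.2 called 1220, 380 higher and 840 lower. A gap of at least 0.1 on the log2 scale between the groups left 1649 genes without overlap, 636 higher and 1013 lower. TAGLN, NPPB and ALPK3 turned sign with the 6 libraries as 1 group, to 0.23, 0.15 and 0.032; of 177 named genes 38 more lost their call or side of the threshold there, and 3 did with DESeq2 (NME3, TRAF1 and HK1). RLE factors (6904 genes called), library totals (6842), no filter (6769), DESeq2 (6125) and an adjusted p under 0.01 (5211) kept the count of 6917 within 1.5 times. Of 615 recomputed list medians 25 moved by more than the spread between replicates and 30 changed sign.

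Leaving out 1 library at a time gave 5724 to 6963 genes called, 2638 to 3186 higher and 3086 to 3777 lower. Without overlap there were 4225 to 5078, 1934 to 2416 higher and 2291 to 2662 lower, and called as well 3804 to 4287, 1719 to 1977 higher and 2009 to 2310 lower. None of these counts over all genes moved by over 1.5 times. With a library left out, no overlap is easier to reach, and both totals without overlap lay above the 3938 and 3748 of all 9 libraries. Their ranges therefore do not measure stability.

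Replicate numbers are shared between the groups. The correlation of same-numbered libraries' deviations ran from -0.0057 to 0.247, and 5 of 9 libraries correlated best with their own number. For replicate 1 it was 0.247 between shControl and shIMPDH1, 0.151 between the knockdowns and 0.0082 between shControl and shIMPDH2. Whether same-numbered libraries share a batch was not tested. With a replicate block 7106 genes were called, 3284 higher and 3822 lower, and no named gene changed its call.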
